A study of Mus musculus with 10 samples.

Results

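The 8 genes described here encode the core of polyamine metabolism: the synthesis enzymes Odc1, Amd1, Srm and Sms, the catabolic enzyme Sat1, the antizymes Oaz1 and Oaz2, and the antizyme inhibitor Azin1. They were chosen by gene symbol, and all 8 were found once each among the 17053 genes of the deposited table. They were measured in NIH-3T3 cells, an established wild-type mouse fibroblast line, in 10 RNA-seq libraries made from total RNA. The libraries fall into 5 groups of 2 replicates, lettered A and B. One group had no treatment, and another received uridine at 800 µM during 2 h. The remaining 3 groups received the same dose of 4-thiouridine (4sU), a uridine relative that enters RNA as it is made, over the same time. RNA of one 4sU group was sequenced as it was, without chemical conversion. In the SLAM group iodoacetamide, and in the TUC group osmium tetroxide with NH4Cl, converted the RNA so that incorporated 4sU is read as C. The study asks whether these chemistries bias quantification.

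Polyamines are small positively charged molecules that bind RNA and are needed for growth. Odc1 makes putrescine from ornithine and is the first and rate-limiting enzyme, Amd1 supplies the aminopropyl donor, and Srm and Sms use that donor to make spermidine and spermine. Sat1 acetylates spermidine and spermine for export or breakdown. Polyamines promote a programmed ribosomal frameshift on antizyme mRNA, antizyme binds Odc1 and sends it to the proteasome without ubiquitin, and Azin1, an Odc1-like protein without catalytic activity, binds antizyme in place of Odc1. Much of this control acts on translation and protein turnover, which RNA libraries do not measure.

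The upstream windows of the genes with the highest and the lowest share of new RNA, Amd1 and Oaz1, are shown as the letters in front of the RefSeq start. RefSeq's promoter table (build GRCm38.p6) held 6 of the 8 genes, and the build behind the counts is not given in the sources used here. The window of Amd1 is chr10:40302189-40302288 on the minus strand, and the Oaz1 window is chr10:80826556-80826655 on the plus strand, both 100 bases long, 5′ to 3′ and ending at the base before the start. Capitals mark TATAA, the letters of a TATA box, on the gene's strand.
Amd1: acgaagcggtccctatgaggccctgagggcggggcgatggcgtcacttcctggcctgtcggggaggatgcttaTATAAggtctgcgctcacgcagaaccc
Oaz1: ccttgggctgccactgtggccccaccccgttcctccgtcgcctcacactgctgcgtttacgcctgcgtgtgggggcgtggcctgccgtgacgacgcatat
In Amd1 the match begins 27 bases before the start (position -27). In the Oaz1 window there was none, and the only match in its table entry spans the annotated start (from position -3). Of 32851 windows of this length, 7.48% hold TATAA on the gene's strand and 10.2% on either strand, where matches on opposite strands can overlap. The windows of Odc1, Sat1, Sms (from 2 starts) and Oaz2 held none on either strand. The E-box CACGTG, searched in 250 bases before the start, was found at 1 of the 2 Sms starts and in no other member's window, against 6.02% of all windows. These matches describe letters in a window, not bound sites.

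Library totals ranged from 27094222 to 33785682 counts, and the 8 genes together took 0.154 to 0.19% of each. Counts of a member in a library lay between 1813 (Oaz2) and 18306 (Oaz1). All 10 fibroblast markers were present (17210 to 25410 CPM in sum). Of 5 epithelial markers sought 2 were listed, summing to at most 0.159 CPM. All 4 endothelial markers were listed (at most 1.13 CPM), and 2 of 4 muscle markers (at most 0.376 CPM). Of 5 blood markers sought 4 were listed, and Cd68 (6.36 to 14.4 CPM) and Csf1r (0.964 to 2.02 CPM) had a mean above 1 CPM. Of 4 adipocyte markers sought 2 were listed, and Lpl had a mean above 1 CPM (19.0 to 36.9 CPM). Cd68 and Lpl thus reached or passed the level of the fibroblast marker Lum (4.74 to 11.65 CPM). Markers not listed could not be checked. CPM are counts over library totals that edgeR adjusts by TMM, so they are shares, and fewer molecules of one RNA and more of the others cannot be told apart. The labels do not say whether replicates were separate cultures. P-values here therefore cover the spread between these samples alone, and that spread may be technical.

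The deposited identifiers are ENSMUSG00000011179 (Odc1), ENSMUSG00000075232 (Amd1), ENSMUSG00000006442 (Srm), ENSMUSG00000071708 (Sms), ENSMUSG00000025283 (Sat1), ENSMUSG00000035242 (Oaz1), ENSMUSG00000040652 (Oaz2) and ENSMUSG00000037458 (Azin1). In RefSeq, Srm lies on chromosome 4, Oaz2 on 9, Amd1 and Oaz1 on 10, Odc1 on 12, Azin1 on 15, and Sat1 and Sms on X. Small genes overlap Oaz1 (Mir1982), Odc1 (Gm22748) and Azin1 (Mir6951), and without a stated strand setting their reads cannot be told apart.

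Per unit of length (TPM, counts divided by the deposited gene length and scaled to a common total), Odc1 stood highest in untreated cells, at 443 ± 82.3 TPM (SD, n = 2). Srm at 398 ± 9.9 TPM and Oaz1 at 376 ± 27.8 TPM did not differ from it or from each other beyond their spread. Sat1 followed at 313 ± 5.94 TPM, below every library of those 3 genes. Amd1 (154 ± 15.6 TPM) and Azin1 (151 ± 34.7 TPM) overlapped. Oaz2, at 80.7 ± 3.92 TPM, was the minor antizyme, and Sms, at 55.8 ± 2.92 TPM, was the lowest member. By mean the entry enzyme stood highest and spermine synthase lowest, with the other roles mixed between them. The top 3 genes were not resolved, and Oaz1 RNA was close to that of its target Odc1.

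The most visible feature of several members was the replicate letter. Odc1 was higher in A than in B in every group, by 0.43 to 0.60 on the log2 scale, and Azin1 was lower in A in every group, by -0.49 to -0.29. Oaz1 was higher in A by 0.25 to 0.34 in 4 groups and by 0.63 in SLAM. Sat1 and Amd1 differed little by letter (0.03 to 0.11 and -0.11 to -0.04). Because libraries of one letter deviated together across genes, each comparison is given by edgeR's quasi-likelihood test both without and with the letter as a replicate block. Calls are adjusted p under 0.05 over all 12218 genes tested, and all 8 members were among these. Without the block 0 members were called in any of the 6 comparisons. At an unadjusted p under 0.05 without the block, 0 members passed for uridine, 1 for 4sU against untreated cells and 1 for 4sU against uridine. The counts were 3 for SLAM, 1 for TUC and 2 for TUC against SLAM. Of all 12218 genes 46, 1102, 1237, 2284, 846 and 1205 passed that cut, in the same order.

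**Figure D1:**
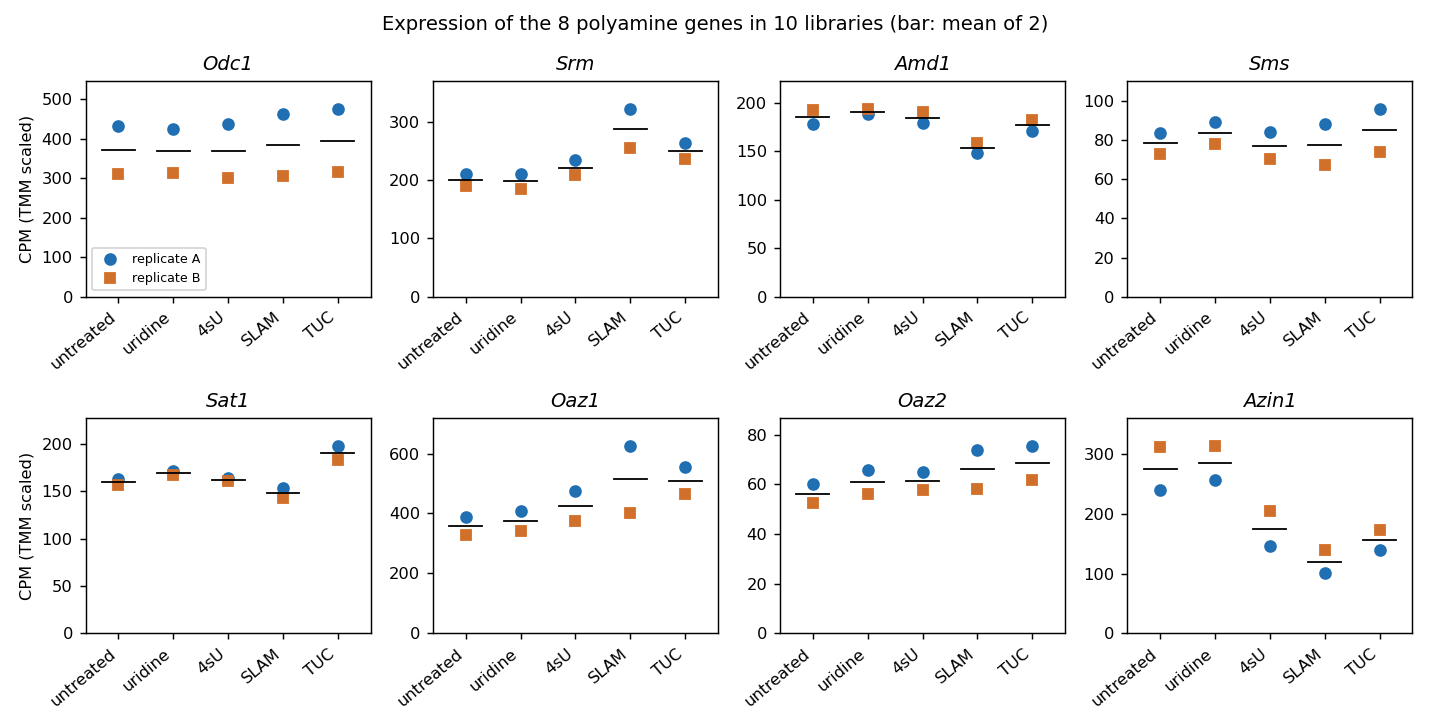
Expression in CPM (TMM scaled, y axis from 0) of each of the 8 genes in the 5 groups (x axis), with circles for replicate A, squares for replicate B and a line at the mean of 2. Azin1 drops from 240 and 312 CPM in untreated cells to 101 and 140.0 CPM after SLAM, while Odc1 stays between 425 and 476 CPM in A and between 301 and 316 CPM in B.

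Uridine, the natural nucleoside at the dose of 4sU, left the members near their untreated level. Odc1 had 425 and 314 CPM in A and B with uridine and 432 and 310.0 CPM without (log2 fold change -0.01 ± 0.307, SE). Azin1 had 256 and 314 CPM against 240 and 312 CPM. Those pairs of groups overlapped. Sat1, without overlap, had 172 and 167 CPM against 163 and 157 CPM, a log2 fold change of 0.09 ± 0.0826 that was not called (adjusted p = 1). The share of all genes without overlap was not counted, so here and below lack of overlap is only a description. The other members lay between -0.02 (Srm) and 0.11 (Oaz2). In this comparison 0 of 8 members were called, against 0% of all genes without the block and 0.00818% with it. At an unadjusted p under 0.05 there were 46 genes without the block, and DESeq2 called 0 members and 0 of all 12218 genes.

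Unconverted 4sU RNA showed less Azin1 than untreated RNA. Azin1 had 146 and 205 CPM in A and B after 4sU, against 240 and 312 CPM in untreated cells. Each 4sU library was below both untreated ones, and within each letter the level was lower. The log2 fold change was -0.65 ± 0.234 without the block (adjusted p = 0.411) and -0.66 ± 0.0583 with it (adjusted p = 1.48e-06, a 1.58-fold fall). With the block the call held when any 1 of the 4 libraries was left out (adjusted p at most 0.000424). Against uridine, which shares the 4sU libraries, Azin1 had a log2 fold change of -0.71 ± 0.0584 with the block (adjusted p = 8.09e-07) and -0.70 ± 0.235 without (adjusted p = 0.327). That call too held without each library in turn.

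Odc1 RNA was level in the same comparison. Odc1 had 437 and 301 CPM after 4sU against 432 and 310.0 CPM in untreated cells, with overlapping groups and a log2 fold change of -0.01 ± 0.0551 with the block (adjusted p = 0.906). Oaz1 had 476 and 376 CPM against 390 and 328 CPM. Its groups overlapped because A exceeds B, yet it was higher within each letter, and with the block it rose by 0.24 ± 0.0764 (adjusted p = 0.036, against 0.869 without). That call was lost without untreated A (adjusted p = 0.284), 4sU A (0.168) or 4sU B (0.203), and kept without untreated B (0.0371). Against uridine Oaz1 did not pass (0.18 ± 0.0764, adjusted p = 0.113 with the block). Oaz2, the minor antizyme, had 65.1 and 57.6 CPM against 60.1 and 52.5 CPM, a log2 fold change of 0.13 ± 0.0607 (adjusted p = 0.158 with the block).

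The ratio of Oaz1 to Azin1 RNA per length, given as a description, was 2.03 to 3.13 in the 4 libraries of untreated and uridine-treated cells. In unconverted 4sU libraries it was 6.27 (A) and 3.53 (B). It reached 12.0 and 5.55 after SLAM and 7.62 and 5.18 after TUC. All 6 libraries of 4sU-treated cells lay above all 4 others. Azin1 alone gave the same split, at 44.2 to 109.7 TPM against 126.2 to 175.6 TPM, so the ratio adds no separate evidence.

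Of the remaining enzymes none was called after 4sU in either fit. Srm had 234 and 208 CPM against 211 and 191 CPM (0.14 ± 0.056, adjusted p = 0.0944 with the block). Amd1 had 179 and 191 CPM against 179 and 193 CPM, almost the same in each letter. Sat1 (0.03 ± 0.0504) and Sms (-0.02 ± 0.0619) were as close to 0. With the block, 2 of 8 members were called against untreated cells, where 19.9% of all genes were, and 1 of 8 against uridine, where 19.7% were. Without the block the shares of all genes were 0.164 and 0.254%. The count of members is thus near the background, and the median log2 fold change of the members, 0.01, equals that of all genes (0.01). Azin1 had the largest fold change of the 8.

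**Figure D2:**
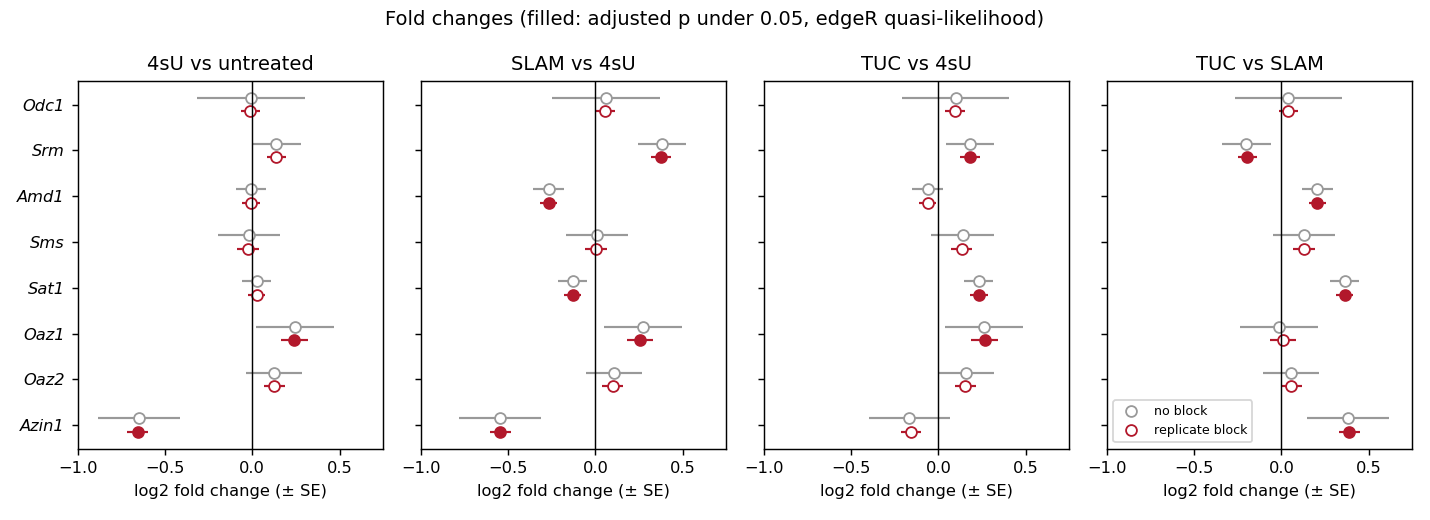
Log2 fold change with its SE (x axis) of the 8 genes (y axis) in 4 comparisons, in grey without and in red with the replicate block, filled where the adjusted p was under 0.05. Only red points are filled, and Azin1 has the lowest value in the 4sU, SLAM and TUC panels (-0.66, -0.54 and -0.16).

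SLAM conversion was followed by a further drop of Azin1 and by lower Amd1 and higher Srm, relative to unconverted 4sU RNA. Azin1 had 101 and 140.0 CPM after SLAM against 146 and 205 CPM unconverted. Amd1 had 149 and 159 CPM against 179 and 191 CPM. Srm had 322 and 255 CPM against 234 and 208 CPM. In each of these genes both SLAM libraries lay on one side of both unconverted ones. With the block the log2 fold changes were -0.54 ± 0.0594 for Azin1 (adjusted p = 7.28e-06), -0.27 ± 0.0496 for Amd1 (adjusted p = 0.000496) and 0.38 ± 0.0558 for Srm (adjusted p = 8.41e-05). Without the block their adjusted p were 0.265, 0.171 and 0.202. All 3 calls with the block held when any 1 library was left out.

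Sat1 and Oaz1 passed after SLAM with the block as well, less firmly. Sat1 had 154 and 143 CPM after SLAM against 164 and 161 CPM, a log2 fold change of -0.13 ± 0.0506 (adjusted p = 0.0489, against 0.429 without the block). Leaving out any 1 library ended that call (adjusted p 0.0521 to 0.309). Oaz1 had 626 and 403 CPM against 476 and 376 CPM, with overlapping groups, and a log2 fold change of 0.26 ± 0.0763 (adjusted p = 0.0131, against 0.54 without). Library SLAM A decided its size: without SLAM A the log2 fold change was 0.08 (adjusted p = 0.343) and without SLAM B it was 0.43 (adjusted p = 8.31e-08), and the call also ended without 4sU A (0.078) or 4sU B (0.0782). Odc1 (464 and 306 CPM, 0.06 ± 0.0551), Sms (0.003 ± 0.0622) and Oaz2 (0.10 ± 0.0604) did not pass. The 5 members called, 2 higher and 3 lower, stand against 41.6% of all genes with the block, and 0 against 0.344% without it.

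Amd2, a close paralog of Amd1, had 20.7 to 24.4% of the summed counts of both. Reads that fit both genes were not measured here and how they were divided is not given, so Amd1's own count is uncertain. With both counts summed, an alternative chosen after seeing the data, the log2 fold change after SLAM was -0.27 ± 0.0504 (adjusted p = 0.000462 with the block), as for Amd1 alone.

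TUC conversion gave higher Sat1, Srm and Oaz1 relative to unconverted 4sU RNA, and no called change of Azin1. Sat1 had 198 and 183.5 CPM after TUC against 164 and 161 CPM, above both unconverted libraries. Srm had 265 and 237 CPM against 234 and 208 CPM, again without overlap. Oaz1 had 554 and 465 CPM against 476 and 376 CPM, overlapping across letters and higher within each. With the block these genes rose by 0.23 ± 0.0504 (adjusted p = 0.00442), 0.18 ± 0.056 (adjusted p = 0.0267) and 0.26 ± 0.0763 (adjusted p = 0.0194), and without it their adjusted p were 0.704, 0.743 and 0.759. The calls of Srm and Oaz1 were lost without any 1 of the 4 libraries. Their log2 fold changes in those fits were 0.151 to 0.2 (Srm) and 0.201 to 0.313 (Oaz1). SE were wider there, and fewer of all genes were called. Sat1's call was lost without 4sU A (log2 fold change 0.21) or TUC A (0.194). Azin1 had 140.0 and 173 CPM against 146 and 205 CPM (-0.16 ± 0.059, adjusted p = 0.0624 with the block), and Amd1 171 and 183 CPM against 179 and 191 CPM (-0.06 ± 0.0495, adjusted p = 0.383). Of 8 members 3 were called with the block, against 25.8% of all genes. Without it 0 were, against 0% of all genes (846 genes at an unadjusted p under 0.05). DESeq2 called 0 members and 15 of all 12218 genes.

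The direct comparison of the chemistries separated 4 members with the block. Sat1 was higher in both TUC libraries than in both SLAM libraries, by 0.36 ± 0.0505 (adjusted p = 0.000184, against 0.247 without the block). DESeq2 without a block called it too (adjusted p = 0.0059), among 183 of all 12218 genes. Azin1 was higher after TUC by 0.39 ± 0.0597 (adjusted p = 0.000375, against 0.704 without), in each letter although the groups touch at 140.0 CPM (SLAM B and TUC A). Both calls held without each library in turn. Amd1 was higher after TUC by 0.21 ± 0.0498 (adjusted p = 0.00831, against 0.497 without), a call lost without TUC A (0.0803) or TUC B (0.0792). Srm was lower after TUC (-0.20 ± 0.0557, adjusted p = 0.0213, against 0.746 without), a call lost without SLAM A (0.113), TUC A (0.165) or TUC B (0.0773). Oaz1 had a log2 fold change of 0.01 ± 0.0762 with the block, which was 0.18 (adjusted p = 0.0198) without SLAM A and -0.17 (adjusted p = 0.025) without SLAM B. Odc1 (0.04 ± 0.0551), Sms (0.13 ± 0.0621) and Oaz2 (0.06 ± 0.0603) did not pass, though Sms passed without SLAM A (0.18, adjusted p = 0.042). These 4 of 8 members stand against 20.1% of all genes with the block, and 0 against 0% without it, where 1205 genes had an unadjusted p under 0.05.

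The share of new RNA differed widely among the members, the 4 synthesis enzymes included. The deposited fraction has no name in the headers and is read as new over total RNA (NTR). It is the share of a gene's RNA that carries label after 2 h, with bounds at the 0.05 and 0.95 posterior quantiles. Background was low: in the 4 uridine and unconverted 4sU libraries the members lay between 0.47% (Sat1) and 2.71% (Srm).

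Amd1 had the highest NTR, at 82.6 and 85.5% in SLAM A and B and 83.6 and 86.3% in TUC A and B. Azin1 came next, at 74.2 and 78.0% after SLAM and 79.6 and 81.1% after TUC. The bounds of the pair did not overlap within any library, and both genes lay above every other member in all 4 libraries.

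Srm and Sat1 lay in the middle. Srm had 51.7 and 54.1% after SLAM and 53.2 and 53.9% after TUC, nearly the same in all 4 libraries. Sat1 had 45.8 and 59.5% after SLAM and 46.4 and 60.9% after TUC, a wide difference between letters that recurred in both chemistries. Odc1 followed with 36.5 and 43.8% after SLAM and 37.1 and 45.3% after TUC. Odc1 protein is known for its very short life, but its RNA was not among the fast ones here.

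Sms and the antizymes had the lowest NTR. Sms had 23.2 and 31.7% after SLAM and 23.4 and 34.6% after TUC, and Oaz2 had 21.0 and 24.5% and 22.4 and 27.6%. Oaz1 was the lowest member, at 14.5 and 18.0% after SLAM and 14.7 and 20.0% after TUC, with bounds from 14.0 to 20.6%. Every member had a higher NTR in B than in A in both chemistries, as did the median of all genes (52.3 and 61.1% in SLAM A and B, 54.4 and 63.0% in TUC A and B).

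**Figure D3:**
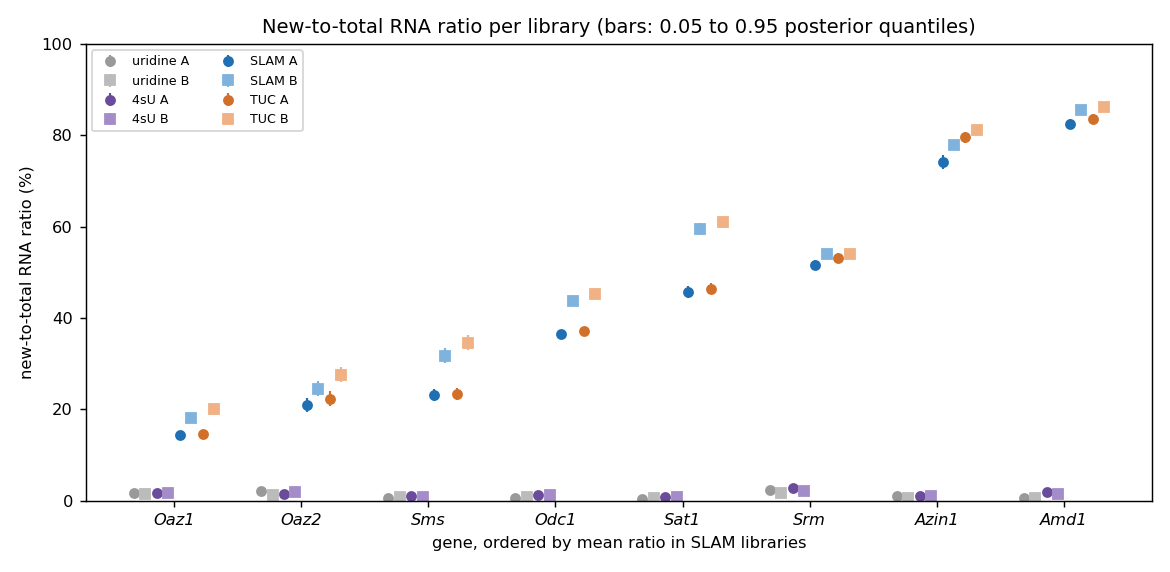
Share of new in total RNA, NTR, in percent (y axis) of the 8 genes (x axis) in 8 libraries, with bars for the 0.05 to 0.95 posterior quantiles. Libraries without conversion lie at 2.71% or lower, Oaz1 lies at 14.5 to 20.0% and Amd1 at 82.6 to 86.3% in converted libraries.

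Among 10202 genes with a mean of 100 counts or more in the converted libraries, the SLAM NTR of Oaz1 stood at percentile 7.3, Oaz2 at 14.8, Sms at 20.2, Sat1 at 46.6, Srm at 46.9, Azin1 at 66.5 and Amd1 at 73.9. The TUC percentile was 7.6 for Oaz1, 33.3 for Odc1, 69.4 for Azin1 and 74.2 for Amd1. If each RNA were at steady state and decayed exponentially, the NTR would correspond to a half-life of 0.755 ± 0.0535 h for Amd1 and 0.969 ± 0.0751 h for Azin1 in SLAM libraries (SD, n = 2). On the same reading Odc1 would have 2.73 ± 0.459 h and Oaz1 7.92 ± 1.33 h, beside 1.87 and 1.47 h for the median NTR of all genes in SLAM A and B. With the block, Azin1 and Oaz1 were both called after 4sU against untreated cells, so the steady-state reading is doubtful for both. Amd1, Azin1 and Oaz1 were also called with the block after SLAM against unconverted RNA. Whether that shift affects their NTR and half-lives was not tested. Background was not subtracted here from the NTR.

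By group mean, the chemistries gave the members the same order of NTR, from Oaz1 to Amd1, except for Sat1 and Srm, whose means were close. Within a library the latter pair had bounds that did not overlap: Sat1 was below Srm in A and above it in B, in both chemistries. No member was called between TUC and SLAM by limma on the logit of the NTR, in either fit. The share of all 10202 genes called was 0% in both fits (187 genes at an unadjusted p under 0.05 without the block and 929 with it). With 2 libraries per chemistry this test has little power, so the lack of calls does not show equal NTR. Azin1 had the largest difference, 0.25 ± 0.0636 logit units higher after TUC with the block (adjusted p = 0.527), and its TUC libraries lay above both SLAM libraries. The other members lay between 0.03 ± 0.0567 (Srm) and 0.12 ± 0.0585 (Oaz2), beside a median of 0.06 over all genes.

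Multiplying CPM by NTR separates new from pre-existing RNA. New Azin1 RNA was 74.7 and 109 CPM after SLAM and 111 and 140.3 CPM after TUC. Its pre-existing RNA was 25.9 and 30.8 CPM after SLAM and 28.6 and 32.7 CPM after TUC. Within each letter the chemistries differed by 36.7 and 31.1 CPM in new and by 2.7 and 1.91 CPM in pre-existing Azin1 RNA. Most Azin1 RNA was new (NTR 74.2 to 81.1%), so an even change of its total would also fall mostly on new RNA. The NTR of Azin1 was not called between the chemistries (adjusted p = 0.527 by limma with the block). Amd1 had 123 and 136 CPM of new RNA after SLAM and 143 and 158 CPM after TUC, and 23.0 to 28.1 CPM of pre-existing RNA in the 4 libraries.

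For Oaz1 most RNA was pre-existing: 535 and 331 CPM after SLAM and 472 and 372 CPM after TUC. Each of these values exceeded the whole Oaz1 level of untreated cells of the same letter (390 and 328 CPM), in SLAM B barely. CPM are shares, so these values do not count molecules. Beside unconverted 4sU RNA of the same letter (476 and 376 CPM), only SLAM A was higher, and SLAM B, TUC A and TUC B were lower. Srm kept 156 and 117 CPM of pre-existing RNA after SLAM and 124 and 109 CPM after TUC. New Sat1 RNA was 70.4 and 85.4 CPM after SLAM and 91.9 and 112 CPM after TUC, and its pre-existing RNA was also lower after SLAM (83.4 and 58.0 CPM) than after TUC (106 and 71.7 CPM) within each letter. Sat1 was thus lower after SLAM in both parts.

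**Figure D4:**
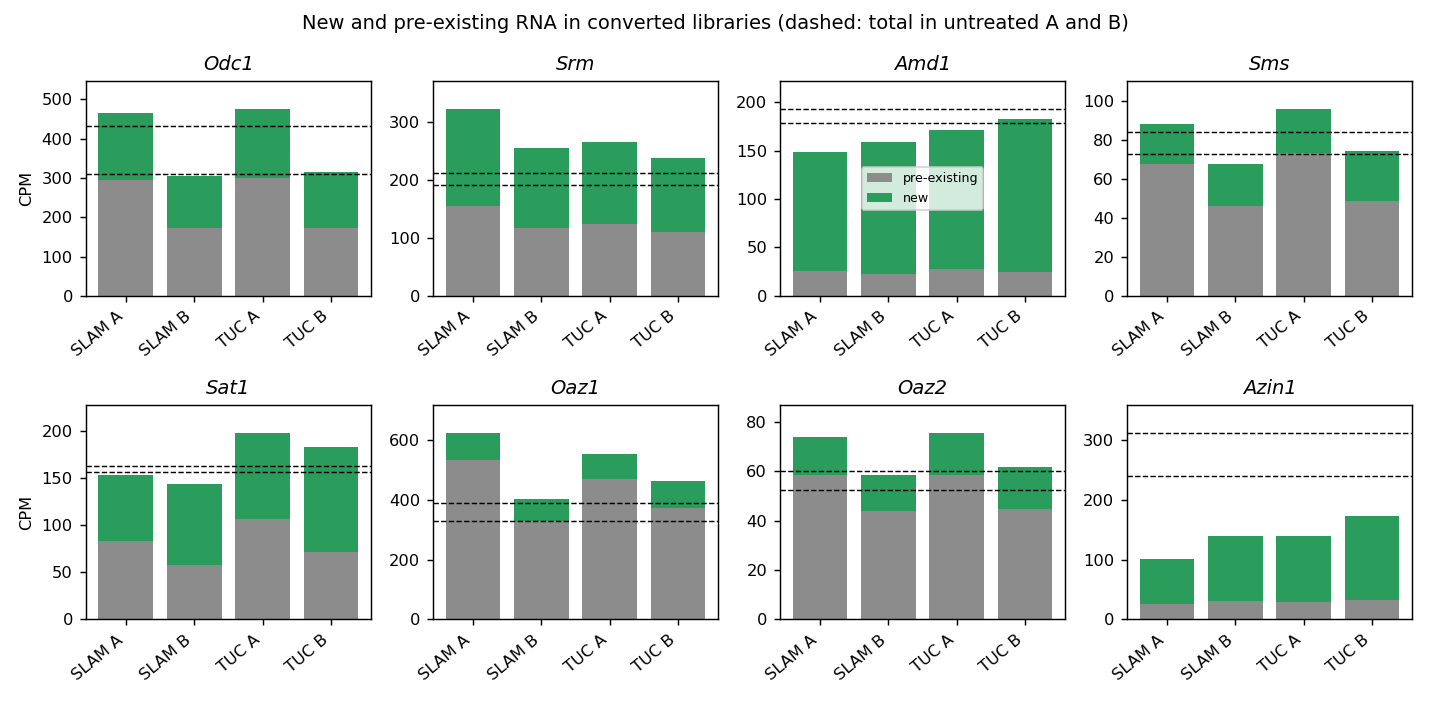
CPM (y axis) of new (green) and pre-existing (grey) RNA of the 8 genes in the 4 converted libraries (x axis), with dashed lines at the total level in untreated A and B. Pre-existing Oaz1 RNA reaches 535 CPM in SLAM A, above its untreated total of 390 CPM, whereas the whole Azin1 bar stays below both untreated levels in all 4 libraries. CPM are shares, not counts of molecules.

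Across the 8 members, a higher NTR went with a lower fold change after conversion. With NTR taken from the other chemistry, Spearman's rho was -0.71 for SLAM and -0.62 for TUC against unconverted 4sU, and -0.48 for unconverted 4sU against untreated cells. Over all 10202 genes rho was -0.40, -0.45 and -0.29. Genes are not independent replicates, and the SLAM and TUC comparisons share the unconverted libraries, so these values are descriptions. Srm and Sat1, close in mean NTR though not within a letter, had log2 fold changes of 0.38 and -0.13 after SLAM.

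Of 31 other genes of the pathway, listed by role, 27 were in the table and 23 had enough counts to be tested. In the fit without the block 0 of 23 were called in any comparison, as for the members. With the block 3 rose and 2 fell after 4sU against untreated cells, a share near the 19.9% of all genes called, with a median of 0.10 beside 0.01 for all genes. Those that fell were Atp13a3, a transporter linked to polyamine uptake (-0.53 ± 0.0523), and Mat2a, which makes the S-adenosylmethionine that Amd1 decarboxylates (-0.46 ± 0.0636). Those that rose were Azin2, the second antizyme inhibitor (0.36 ± 0.105), Eif5a, the protein that carries the spermidine-derived amino acid hypusine (0.24 ± 0.0575), and Ahcy, which clears S-adenosylhomocysteine (0.17 ± 0.055). Azin2 thus changed in the opposite direction from Azin1. Against uridine 4 rose and 2 fell, where 19.7% of all genes were called, adding Atp13a2, a lysosomal polyamine exporter (0.34 ± 0.0788), and Mri1 of the methionine salvage pathway (0.31 ± 0.088), and Eif5a did not pass.

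After SLAM 10 of these 23 genes rose and 5 fell with the block, against 41.6% of all genes called, with a median of 0.16 (all genes 0.001). The 6 with the smallest adjusted p are named first. Atp13a3 (-0.64 ± 0.0533), the arginine transporter Slc7a1 (-0.45 ± 0.0655), Mat2a (-0.38 ± 0.0639) and Amd2 (-0.30 ± 0.0652) fell, and Mri1 (0.51 ± 0.0828) and Ahcy (0.22 ± 0.0548) rose. The largest fold change, with the widest error, was that of the transporter Slc12a8 (1.19 ± 0.443, adjusted p = 0.0404), named after its value was seen. Dhps and Dohh, the enzymes that make hypusine, and Eif5a rose (0.24, 0.28 and 0.21), while Eif5a2 fell (-0.27). After TUC 2 rose and 2 fell, against 25.8% of all genes called (median 0.12, all genes 0.01), the latter again Atp13a3 (-0.34 ± 0.0531) and Slc7a1 (-0.42 ± 0.0656), the former Eif5a (0.20 ± 0.0575) and Mri1 (0.24 ± 0.085). Between TUC and SLAM 3 were higher and 2 lower after TUC, against 20.1% of all genes called, the higher ones being Amd2 (0.43 ± 0.0652), Atp13a3 (0.29 ± 0.0536) and Mat2a (0.27 ± 0.064), the lower ones Mri1 (-0.27 ± 0.0821) and Atp13a2 (-0.24 ± 0.0757). Amd2 and Amd1 may share reads, which was not measured. Single libraries were not left out for these genes.

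Genes whose log2 CPM followed a member most closely over the 10 libraries were sought among 8528 genes with a mean of 10 CPM or more. For Odc1 these were Mthfd2, Lap3 and Tyw1 (Pearson r 0.992, 0.991 and 0.99), for Amd1 Zbtb6, Tmem168 and Armcx3 (0.993, 0.99 and 0.988), and for Sat1 Ywhaz, Commd8 and Rab2a (0.968, 0.951 and 0.95). Azin1, added after its values were seen, was followed by Ammecr1, Slc35f5 and Lemd3 (0.993, 0.993 and 0.992). These libraries share letters and treatments, so r is a description of likeness over 10 points.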

How the data were processed

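One deposited table was used. Unscaled expected counts per gene were deposited for 10 libraries, per the file headers. In each library 24.8 to 30.3% of them were not whole. Per the submitters' processing notes, cutadapt, Bowtie2 2.3.0 and STAR 2.7.10b were used. Not given in the sources used here are build, annotation, counter, strand setting and the tool behind the fraction. A fraction per gene, as posterior mode with 0.05 and 0.95 quantiles, was deposited for 8 libraries per the file headers, and is read as NTR. Of the values per library 24 columns were not used. Gene length was deposited without saying which length.

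Counts were rounded, filtered (filterByExpr, 12218 genes), TMM scaled and tested with edgeR 4.0.16 (R 4.3.3) in 1 fit over all libraries, and again with a block for the letter. NTR (clipped to 0.01 to 0.99, mean of 100 counts or more, 10202 genes) was tested with limma 3.58.1. P-values were adjusted (Benjamini-Hochberg) over all genes. The SE of an edgeR fold change is its absolute log2 value divided by the square root of the F statistic of its test. Both analyses were also run on simulated data with known changes. The simulated counts held a letter effect of the kind that the block removes, and the simulated NTR held none. Those runs therefore do not bear on the choice of block. The labels do not say what a letter shares. The letters were taken to pair libraries because the differences between A and B were alike in all groups (r 0.584 to 0.69 over genes, 10 pairs of groups). Replicates of a group were not one library deposited repeatedly (chi-square over its degrees of freedom 38.4 to 78.1). Alternatives were DESeq2 1.42.0, library totals, other filters and leaving out each library.

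Members, gene lists and tests were chosen with earlier results of these data known. All members are named, pathway genes where called (at most 6 a comparison, by smallest p, plus the hypusine genes and Slc12a8, named after their values were seen), and the 3 genes most like Odc1, Sat1 and Amd1.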

Additional observations from a re-analysis of the deposited data

Results flagged for a closer look

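The effect of conversion differed between the chemistries for 4 members in the test of the difference itself (TUC minus SLAM, log2, edgeR quasi-likelihood with the replicate block). Sat1 was lower than both unconverted libraries in both SLAM libraries and higher in both TUC libraries, a difference of 0.361 (adjusted p = 0.000184). For Azin1 the difference was 0.388 (adjusted p = 0.000375), for Amd1 0.206 (adjusted p = 0.00831) and for Srm -0.195 (adjusted p = 0.0213). With the block 20.1% of all 12218 genes were called in this comparison. The calls of Sat1 and Azin1 held without each library in turn. Amd1's call was lost without TUC A or TUC B, and Srm's without SLAM A, TUC A or TUC B. Without the block edgeR called none of the 4. DESeq2, also without it, called Sat1 (adjusted p = 0.0059), among 183 of all 12218 genes.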

How the results depend on the processing

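Without the letter in the model 0 members were called in the 7 comparisons, NTR included. Library totals, no filter, a mean of 100 counts or more and leaving out any 1 library gave 0 as well, and DESeq2 gave 0 except for 1 member (Sat1) between TUC and SLAM. In that comparison DESeq2 called 183 of all 12218 genes. With the block the shares of all genes called were 0.00818% for uridine, 19.9% for 4sU against untreated cells and 19.7% for 4sU against uridine. They were 41.6% for SLAM, 25.8% for TUC, 20.1% for TUC against SLAM and 0% for NTR. Beside these shares the counts of members were 0, 2, 1, 5, 3, 4 and 0 in the same order. With the block and 1 library left out, the number of members called changed in some comparisons. The number of all genes called changed in those fits too, so a lost call there is not read as a trait of the members. NTR gave 0 with a mean of 500 counts or more, untransformed, or clipped less. Of 700 values of single members under alternatives 1 reversed with a call: Oaz1 between TUC and SLAM, 0.18 without SLAM A with the block, against -0.01 without the block. In all, 82 changed sign. Common dispersion fell from 0.0187 to 0.00195 under the block. With 2 libraries a group, a lone library is assumed to vary like the other groups.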
